A study of Mus musculus with 20 samples.

Results

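Editing persisted at sites of 5 transcripts in mouse embryonic fibroblasts that lack ADAR1: uc012aji.1, Als2cl, Psma3, 4933407H18Rik and uc009qeo.1. All sites of these transcripts with at least 50 reads in both libraries of at least 1 group were taken, which gave 229 of their 247 listed sites, against 9065 of 48425 sites in the whole series by the same coverage rule. The transcripts are 5 of 6868 annotated genes. The transcripts were chosen by the measured editing level of their highest site in untreated cells without ADAR1, so those levels are described here and not tested. RNA editing was read by amplicon sequencing in 5 fibroblast lines, each named by its genotype label. They were a line without ADAR1 (ADAR1_NULL, ADAR1-null here), a line without ADAR2 (ADAR2_NULL, ADAR2-null), a line without the p150 form of ADAR1 (P150_KO, p150-knockout), a line without STAT2 (STAT2_NULL, STAT2-null) and a line labelled ADAR1_WT, called wild type. Each line was sampled with interferon and untreated, with 2 libraries per group and 20 libraries in 10 groups. No label names the wild-type line a matched control of the others, and each genotype is 1 line, so a genotype and other differences between lines cannot be told apart. The labels state neither the type, dose or duration of interferon nor how each line was made.

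Adenosine-to-inosine editing changes single bases in double-stranded stretches of RNA, and inosine is read as G in cDNA. In mammals it is carried out by ADAR1 and ADAR2. ADAR1 has a constitutive, mostly nuclear p110 form and a largely cytoplasmic p150 form whose promoter responds to interferon through a pathway that includes STAT2, and it edits many sites clustered in repeat-derived hairpins of 3′ UTRs. ADAR2 is best known for efficient editing of single sites, such as those in neuronal glutamate receptor transcripts.

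Of the 5 names, 3 were matched to RefSeq genes by symbol or synonym. Psma3 encodes an alpha-type subunit of the 20S proteasome core, the chamber in which proteins are degraded. Als2cl is a protein-coding gene and is given no function here. 4933407H18Rik is a synonym of Uvssa, whose product acts in transcription-coupled nucleotide excision repair. The UCSC identifiers uc012aji.1 and uc009qeo.1 were not matched and are given no function. Positions are those of build mm9 as the files give them, with no statement on 0-based or 1-based counting.

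The 77 sites of uc012aji.1 lie on the plus strand of chromosome 17 over 671 bases (positions 6122579 to 6123249) and are annotated as noncoding RNA. The other 152 sites are in 3′ UTRs on plus strands: 9 of Als2cl over 115 bases of chromosome 9 (110802776 to 110802890), 17 of Psma3 over 132 bases of chromosome 12 (72095513 to 72095644), 93 of 4933407H18Rik over 3193 bases of chromosome 5 (33757989 to 33761181) and 33 of uc009qeo.1 over 171 bases of chromosome 9 (66221330 to 66221500). Nearby sites of 1 transcript share reads, and the sites of 1 transcript are not independent. Coverage differed along 4933407H18Rik, with 420 to 693 reads per library at position 33758586 and 90 to 170 at position 33760959. Total coverage summed over sites was 4389326 to 5559674 reads per library, and all 229 sites had at least 50 reads in all 20 libraries. Amplicon reads carry no molecular identifiers, so a read is not an RNA molecule and limits from read counts cover counting error only. The labels do not call the 2 replicates separate cultures, and p-values then reflect the spread among these libraries alone, possibly a technical one. Treated wild-type libraries differed most from each other over the series. Their chi-square per degree of freedom was 7.51, against 1.55 to 3.56 in the other groups. The tests share 1 estimate of spread per site over all groups, which may understate the spread of treated wild type. Expression is not read by this assay, so neither the loss of the targeted genes nor fibroblast identity could be checked: of 8 fibroblast marker genes, Dcn and Thy1 have 2 listed sites between them and 0 of these were covered.

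Genes with a site of at least 50 reads in both untreated ADAR1-null libraries were ranked by their highest such site. Replicate 1 of these libraries had 5652 sites with at least 50 reads, the fewest of the 20 libraries, against 8405 in replicate 2. Genes and sites below that coverage could not enter the ranking. Cog3 (51.0% edited reads) and Rpa1 (45.3%) stood above uc012aji.1 (20.7%) and Als2cl (10.9%), Mad2l1 (7.43%) and Cycs (7.16%) came next, and Psma3 (5.17%), 4933407H18Rik (5.06%) and uc009qeo.1 (4.91%) followed. Just below them were Agphd1 (4.52%), uc009drp.1 (4.43%) and Dnajc1 (4.27%). The SD of the 2 libraries was 8.73 at Cycs and 6.27 at uc009drp.1, so those ranks lean on single libraries. Level alone did not set the choice, as Cog3, Rpa1, Mad2l1 and Cycs ranked above some members and were not taken. Psma3, 4933407H18Rik and uc009qeo.1 therefore sit close to genes that were not taken, and with interferon their sites named here were below 2% in ADAR1-null cells. The name "still edited without ADAR1" fits uc012aji.1 and Als2cl in both treatments, at more than 9%, and the other 3 mainly in untreated cells.

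Most listed sites of the 5 transcripts were at or near 0 in every line. In ADAR1-null cells 11 of the 229 sites reached 1% with interferon and 13 untreated. In ADAR2-null cells 43 and 24 did, in p150-knockout cells 20 and 17, in STAT2-null cells 27 and 32, and in wild type 54 and 34. The median over the 229 sites lay between 0.134% (untreated ADAR1-null cells) and 0.302% (untreated ADAR2-null cells). Among the 3972 other sites of the series covered in all libraries, 2.24% reached 1% in ADAR1-null cells with interferon and 2.84% untreated, against 4.80% and 5.68% of the 229 sites, a difference that the choice of transcripts favours. Few sites therefore carried the editing: the ADAR1-null sites at 1% or more numbered 3 in uc012aji.1 in either treatment, 1 in Als2cl, 1 in Psma3, 4 with interferon and 6 untreated in 4933407H18Rik, and 2 in uc009qeo.1.

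**Figure D1:**
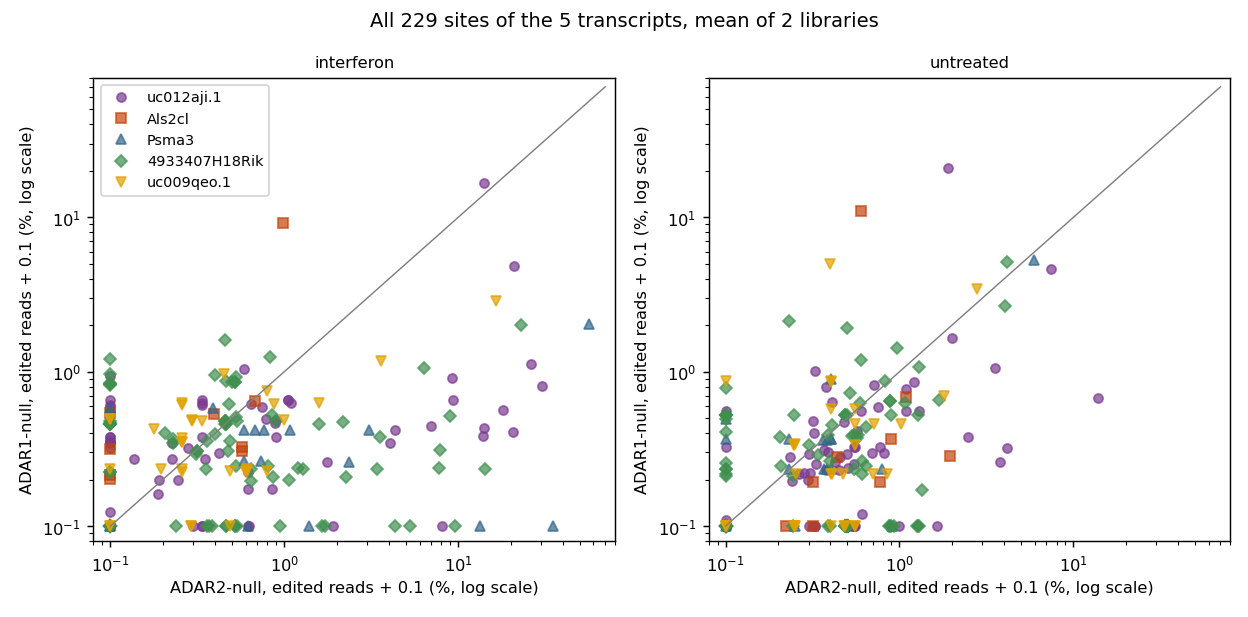
Mean level of all 229 sites, 1 point per site and 1 symbol per transcript, in ADAR1-null cells (vertical axis) against ADAR2-null cells (horizontal axis), as edited reads plus 0.1 in percent on log scales, with interferon (left) and untreated (right). The grey line marks equal levels. With interferon the Als2cl lead site (9.08% against 0.884%) stands far above the line and most of the strongly edited sites lie below it.

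For each transcript the site with the highest level in untreated ADAR1-null cells is called its lead site. Up to 5 further sites per transcript were taken by their highest group mean, of at least 5%, so a high level in that group is part of the choice. A difference of a further site from the group that brought it in is given as a description, or with its choice named where a test is printed. Values are percent edited reads in replicates 1 and 2 of a group, means are given ± SD (n = 2), and differences are in percentage points. Adjusted p-values are from edgeR's quasi-likelihood test on edited and unedited read counts with Benjamini-Hochberg adjustment over all sites tested in a comparison, two-sided, and a site is called under 0.05. The ADAR1-null libraries used in tests are the interferon-treated ones, which are other libraries of the same line as those that chose the transcripts.

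**Figure D2:**
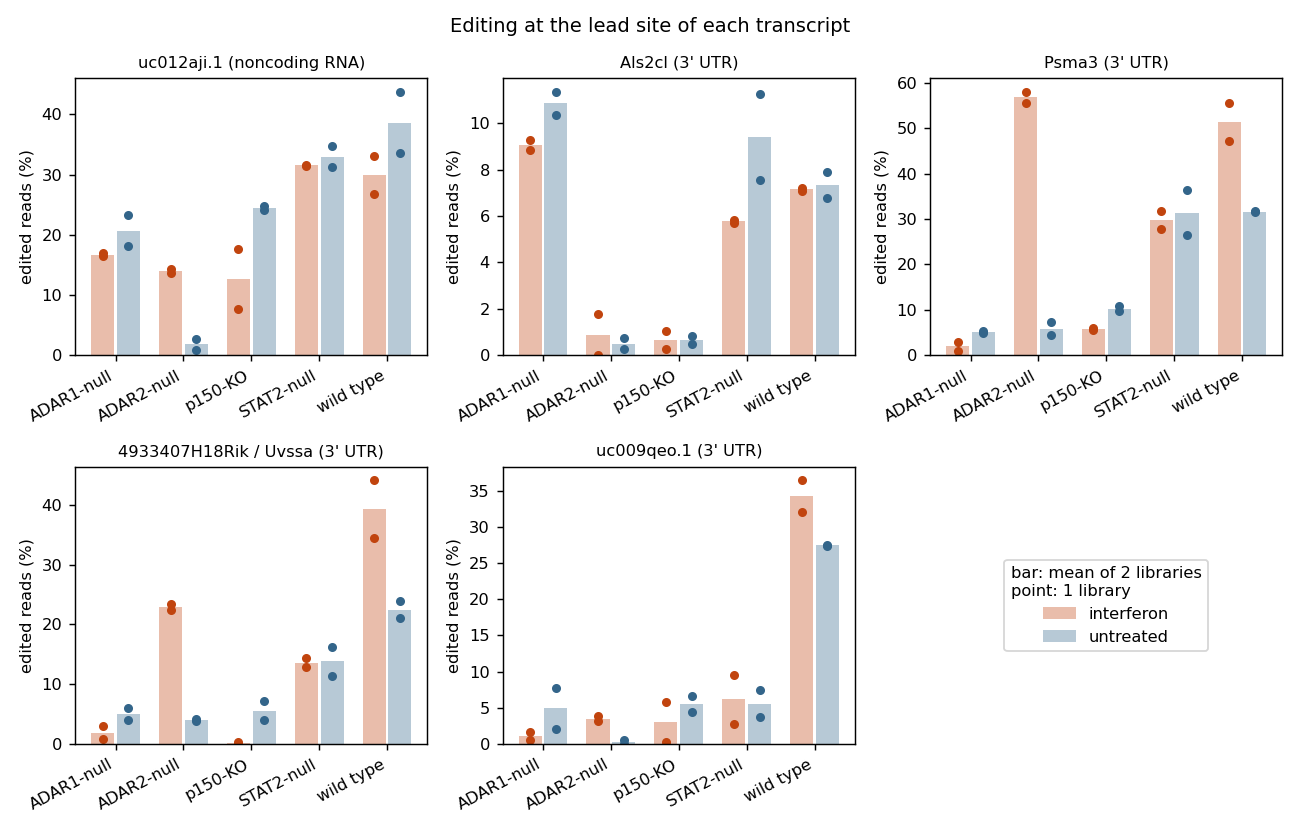
Edited reads in percent (vertical axis, from 0) at the lead site of each of the 5 transcripts, by line and treatment. Bars are means of 2 libraries and points are single libraries. ADAR1-null bars stand well above the ADAR2-null and p150-knockout bars at Als2cl, and at uc012aji.1 the untreated ADAR2-null bar (1.79%) is the lowest of the 10.

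The uc012aji.1 lead site, at position 6122636 with 2742 to 5158 reads per library, was the most edited of the 5 in ADAR1-null cells. It was read at 23.3% and 18.1% in untreated ADAR1-null cells, against 2.67% and 0.911% in untreated ADAR2-null cells and 33.5% and 43.8% in untreated wild type. ADAR1-null cells were thus lower than wild type but far above ADAR2-null cells, with means of 20.7% ± 3.68 and 1.79% ± 1.24 for the ADAR1-null and ADAR2-null lines and a ratio of 11.6 between them, given as a description. With interferon the values were 16.9% and 16.5% in ADAR1-null cells, 14.3% and 13.6% in ADAR2-null cells and 33.1% and 26.7% in wild type. ADAR1-null and ADAR2-null cells then differed by 2.72 points (SE 0.417, adjusted p = 0.675), and ADAR1-null cells and wild type by -13.2 points (SE 3.20, adjusted p = 0.127), neither past the threshold although the libraries did not overlap.

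Untreated ADAR2-null cells were lower than wild type at this site (difference -36.9 points, SE 5.21, adjusted p = 6.5e-05), by the most of the 5 lead sites. The call was kept without any 1 library but not in a fit of only these 2 groups (adjusted p = 0.0862). The p150-knockout line held 7.64% and 17.6% with interferon and 24.1% and 24.8% untreated, and the STAT2-null line 31.6% and 31.4% with interferon and 31.3% and 34.7% untreated. STAT2-null libraries lay within the range of wild type or close to it, with differences of 1.62 points with interferon (adjusted p = 0.884) and -5.66 points untreated (adjusted p = 0.836). The p150-knockout cells were lower than wild type with interferon, by -17.3 points (SE 5.91, adjusted p = 0.0322), but not past the threshold untreated (-14.2 points, adjusted p = 0.203). The treated call rests on single libraries: it was lost without p150-knockout replicate 1 (adjusted p = 0.25) and without wild-type replicate 1 (adjusted p = 0.11), and also with limma (0.0636), with no minimum level (0.149) and in a fit of only the 2 groups (0.118).

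Other uc012aji.1 sites within 30 bases of the lead site behaved differently from it in ADAR1-null cells. At position 6122608, 28 bases before the lead, editing was 1.02% and 0.385% with interferon in ADAR1-null cells, against 27.3% and 33.4% in ADAR2-null cells and 24.7% and 21.2% in wild type. Untreated it was 0.543% and 0.608% in ADAR1-null cells, 17.7% and 9.90% in ADAR2-null cells and 17.8% and 10.6% in wild type. This site was almost unedited without ADAR1 and strongly edited without ADAR2. ADAR2-null cells differed from wild type by -0.385 points untreated, with overlapping libraries (SE 5.32, adjusted p = 0.963), and by 7.37 points with interferon, without overlap but not past the threshold (SE 3.52, adjusted p = 0.818). This site was taken for its level in STAT2-null cells with interferon. With interferon it was lower in ADAR1-null than in ADAR2-null cells (difference -29.7 points, SE 3.07, adjusted p = 1.09e-06) and than in wild type (difference -22.3 points, SE 1.79, adjusted p = 7.47e-06).

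Positions 6122654 (18 bases after the lead), 6122627 (9 before) and 6122638 (2 after) were also low in ADAR1-null cells. They were taken for their level in ADAR2-null cells with interferon, so their high values there are a description. With interferon their ADAR1-null means were 1.02%, 0.310% and 0.466%, against ADAR2-null means of 26.3%, 20.6% and 18.1%, and in wild type with interferon they averaged 9.70%, 8.30% and 4.51%. Untreated, the ADAR2-null means of 4.08%, 3.69% and 2.36% were below the wild-type means of 10.2%, 6.00% and 3.72%, by differences that did not pass the test (adjusted p = 0.224, 0.665 and 0.505), with overlapping libraries at 6122627 only. Position 6122631, 5 bases before the lead, was the only other site of this RNA above 2% in ADAR1-null cells: it held 5.26% and 4.21% with interferon and 5.93% and 3.14% untreated. In ADAR2-null cells it held 19.8% and 22.1% with interferon and 7.43% and 7.28% untreated, and in wild type 22.9% and 30.0% with interferon and 22.0% and 20.5% untreated. With interferon it was lower in ADAR1-null than in ADAR2-null cells (difference -16.2 points, SE 1.27, adjusted p = 0.00144), whereas at the lead site 5 bases on the 2 lines were within 3 points of each other. The ADAR1-null calls at 6122608 and 6122631 were kept without any 1 library.

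**Figure D3:**
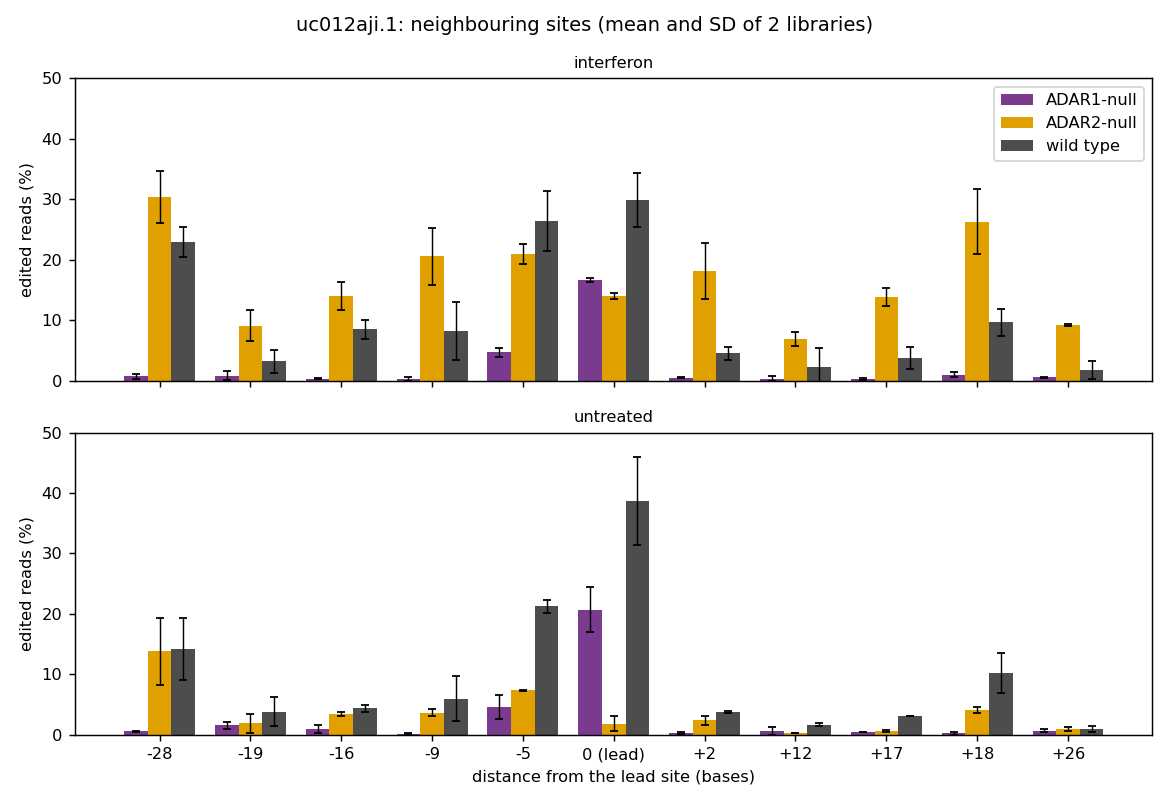
Editing of uc012aji.1 sites from 28 bases before to 26 bases after the lead site (horizontal axis, bases), as mean percent edited reads and SD of 2 libraries, in ADAR1-null, ADAR2-null and wild-type cells with interferon (top) and untreated (bottom). In ADAR1-null cells the lead site (16.7% and 20.7%) stands alone above 5%, while in untreated ADAR2-null cells it averages 1.79%.

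The Als2cl lead site, at position 110802807 with 346 to 745 reads per library, was edited more in ADAR1-null cells than in any other line on average. It held 8.86% and 9.30% with interferon and 11.4% and 10.4% untreated in ADAR1-null cells, against 1.77% and 0% with interferon and 0.725% and 0.274% untreated in ADAR2-null cells. In wild type it held 7.08% and 7.23% with interferon and 6.79% and 7.92% untreated. The ADAR1-null and ADAR2-null libraries were thus far apart in both treatments, and every ADAR1-null library was above every wild-type library. With interferon, ADAR1-null cells exceeded ADAR2-null cells by 8.20 points (SE 0.910, adjusted p = 0.00853), against 7 edited reads in the ADAR2-null libraries, all in replicate 1. The call was lost without ADAR2-null interferon replicate 2, which had 0% (adjusted p = 0.0899). Against wild type the ADAR1-null difference of 1.93 points (SE 0.230) did not pass the test (adjusted p = 0.739).

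Als2cl editing was also low in the line that lacks only p150. The p150-knockout libraries had 0.256% and 1.05% with interferon and 0.498% and 0.818% untreated, and the STAT2-null libraries 5.71% and 5.83% with interferon and 11.3% and 7.55% untreated. Compared with wild type, the p150-knockout line was lower by -6.50 points with interferon (SE 0.404, adjusted p = 0.0117) and -6.70 points untreated (SE 0.585, adjusted p = 0.0203). The site was therefore near 0 in the p150-knockout line and at its highest in the line without any ADAR1. The treated call was lost without p150-knockout replicate 1 (adjusted p = 0.101), and the untreated one without p150-knockout replicate 1 (0.12) or 2 (0.0735) or wild-type replicate 2 (0.0553). In fits of only the 2 groups neither passed (adjusted p = 0.0578 with interferon and 0.0658 untreated). ADAR2-null cells were lower than wild type by -6.86 points untreated (SE 0.606, adjusted p = 0.0365), a call lost without any 1 of the 4 libraries: without ADAR2-null replicate 1 or 2 (adjusted p = 0.0782 or 0.172) and without wild-type replicate 1 or 2 (0.0585 or 0.0922). It was also lost with no minimum level (0.129) and in a fit of only the 2 groups (0.149). With interferon that difference was -6.27 points and did not pass (SE 0.887, adjusted p = 0.174). The other 8 sites of Als2cl reached at most 1.85% in any group.

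The Psma3 lead site, at position 72095616 with 278 to 409 reads per library, had little editing in ADAR1-null cells and the highest level of all sites of the 5 transcripts in ADAR2-null cells with interferon. With interferon it was read at 2.93% and 0.952% in ADAR1-null cells, 58.1% and 55.5% in ADAR2-null cells and 55.7% and 47.1% in wild type. Untreated it was read at 4.97% and 5.36% in ADAR1-null cells, 4.47% and 7.25% in ADAR2-null cells and 31.7% and 31.5% in wild type. Untreated ADAR1-null and ADAR2-null libraries overlapped, and both lines lay far below wild type. With interferon the ADAR1-null level was lower than in ADAR2-null cells (difference -54.8 points, SE 1.63, adjusted p = 3.41e-05) and than in wild type (difference -49.4 points, SE 4.40, adjusted p = 8.01e-05), both kept without any 1 library. Untreated ADAR2-null cells were called lower than wild type (-25.8 points, SE 1.39, adjusted p = 0.0347). That call was lost without any 1 of the 4 libraries: without ADAR2-null replicate 1 or 2 (adjusted p = 0.135 or 0.0955) and without wild-type replicate 1 or 2 (0.0765 or 0.0922). It was also lost with a minimum of 20 reads (0.052), with no minimum level (0.269) and in a fit of only the 2 groups (0.241). The p150-knockout libraries had 5.99% and 5.56% with interferon and 9.74% and 10.8% untreated, and the STAT2-null libraries 27.7% and 31.8% with interferon and 36.3% and 26.5% untreated.

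Further sites of Psma3 gave no such residue without ADAR1. At position 72095588, 28 bases before the lead, ADAR1-null cells had 0 edited reads of 622 with interferon, which allows a level of up to 0.482%, against 33.7% and 36.3% in ADAR2-null cells and 34.0% and 31.8% in wild type. Untreated it was below 1% in every ADAR1-null, ADAR2-null, p150-knockout and wild-type library, and at 1.08% and 1.77% in STAT2-null cells. The site was taken for its level in ADAR2-null cells with interferon, and only these and treated wild-type cells passed the 5% minimum. A lower level in other lines than in treated wild type is thus built into its choice. With interferon it was lower than wild type in p150-knockout cells, at 0.545% and 0.292% (difference -32.5, SE 1.12, adjusted p = 0.000157), and in STAT2-null cells, at 1.29% and 0.346% (difference -32.1, SE 1.21, adjusted p = 0.00139). Position 72095623, 7 bases after the lead, had 0 edited reads in ADAR1-null cells with interferon (up to 0.482%), 18.9% and 7.78% in ADAR2-null cells and 4.49% and 9.17% in wild type.

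The lead site of 4933407H18Rik, at position 33758586 with 420 to 693 reads per library, was low in ADAR1-null cells in both treatments. With interferon it held 0.870% and 2.94% in ADAR1-null cells, 23.4% and 22.4% in ADAR2-null cells and 34.5% and 44.1% in wild type. Untreated it held 4.04% and 6.08% in ADAR1-null cells, 3.84% and 4.26% in ADAR2-null cells and 21.0% and 23.9% in wild type. As at Psma3, untreated ADAR1-null and ADAR2-null libraries overlapped, and with interferon ADAR1-null libraries were the lower. The treated difference was -21.0 points from ADAR2-null cells (SE 1.15, adjusted p = 0.00184) and -37.4 points from wild type (SE 4.93, adjusted p = 0.000378), both kept without any 1 library. In p150-knockout cells the site had 0% and 0.394% with interferon, below the 3.99% and 7.11% of the untreated libraries. STAT2-null cells had 12.8% and 14.3% with interferon and 11.4% and 16.2% untreated. With interferon p150-knockout cells were lower than wild type (difference -39.1 points, SE 4.83, adjusted p = 1.44e-05). STAT2-null cells differed from wild type by -25.7 points with interferon (SE 4.88, adjusted p = 0.0999).

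The 5 further sites of 4933407H18Rik described in full are positions 33758056, 33758567, 33759205, 33759229 and 33760959. In ADAR1-null cells with interferon their means were 0.136%, 0.421%, 0.133%, 0.134% and 0% (the last with 0 of 271 reads, which allows up to 1.11%). In wild type with interferon they were 12.2%, 10.6%, 15.2%, 10.5% and 11.5%. All 5 were taken for their wild-type level, 33758567 untreated and the others with interferon, so these values are a description with no test. Over all tested sites of this transcript, 10 of 21 were called lower in ADAR1-null cells than in wild type with interferon, against 69.5% of all tested sites. The choice of transcripts by ADAR1-null editing favours a smaller share. The 2 sites that lie 24 bases apart, positions 33759205 and 33759229, differed in the line without ADAR2. With interferon position 33759205 held 15.9% and 12.3% in ADAR2-null cells, against 10.9% and 19.4% in wild type. Position 33759229 held 1.55% and 0.817% in ADAR2-null cells, against 12.4% and 8.59% in wild type, a difference of -9.29 points from the level for which it was taken.

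The lead site of uc009qeo.1, at position 66221404, was low in every line other than wild type. Untreated ADAR1-null cells had 7.69% in replicate 1, from 12 of 156 reads, and 2.13% in replicate 2, from 18 of 845 reads. Untreated ADAR2-null cells had 0.598% and 0%, and untreated wild type 27.4% and 27.6%. The ADAR1-null mean of 4.91% ± 3.93 leans on the shallow replicate: over the reads of both libraries the level was 3.0%. With interferon ADAR1-null cells had 1.63% and 0.504%, ADAR2-null cells 3.18% and 3.85% and wild type 36.5% and 32.1%. ADAR1-null and ADAR2-null cells then differed by -2.45 points (SE 0.655, adjusted p = 0.175), so the order of the 2 lines was opposite to that in untreated cells and not past the threshold.

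At this site p150-knockout cells had 0.279% and 5.76% with interferon and 4.46% and 6.62% untreated, and STAT2-null cells 2.76% and 9.59% with interferon and 7.40% and 3.69% untreated. ADAR1-null cells were lower than wild type with interferon (difference -33.2 points, SE 2.27, adjusted p = 0.00111), which held without any 1 library. ADAR2-null cells were lower than wild type untreated (difference -27.2 points, SE 0.306, adjusted p = 0.00749), and this was lost without ADAR2-null replicate 2 (adjusted p = 0.0537) and in a fit of only the 2 groups (0.0979). With interferon the ADAR2-null difference of -30.8 points did not pass (SE 2.22, adjusted p = 0.118). STAT2-null cells with interferon were called lower than wild type (-28.1 points, SE 4.06, adjusted p = 0.0473), a call lost without any 1 of the 4 libraries: without STAT2-null replicate 1 or 2 (0.256 or 0.0669) and without wild-type replicate 1 or 2 (0.0731 or 0.0623), and also with limma (0.0542) and in a fit of only the 2 groups (0.0661). The neighbouring site 54 bases before it, position 66221350, was not low in STAT2-null cells, which held 23.5% and 26.8% with interferon and 23.5% and 26.7% untreated, against 32.1% and 45.3% with interferon and 32.0% and 19.6% untreated in wild type. In ADAR1-null cells that neighbour held 3.49% and 2.01% with interferon and 5.06% and 1.65% untreated.

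With interferon, ADAR1-null cells were lower than ADAR2-null cells at most tested sites of the 5 transcripts, a direction that the level minimum favours. A tested site needed a mean of at least 1% over the libraries of both groups. Of the 229 sites, 11 reached 1% in ADAR1-null cells and 43 in ADAR2-null cells. Most tested sites therefore entered through their ADAR2-null level. Of 36 sites tested, 28 were called lower and 1 higher, against 68.7% of all 1078 tested sites called lower, 0.0928% called higher and 68.8% called in either direction. The 1 higher site, at Als2cl, was the only one of the 1078 called higher. The uc012aji.1 lead site was among 7 tested sites that were not called. The lower sites were 13 of 14 tested in uc012aji.1, 4 of 5 in Psma3, 10 of 13 in 4933407H18Rik and 1 of 3 in uc009qeo.1. The median difference was -7.79 points over the 36 sites and -5.54 over all tested sites. Against wild type with interferon, 25 of 44 tested sites were called lower in ADAR1-null cells and 0 higher, against 69.5% called of 1159 tested sites, with 10 of 13 in uc012aji.1, 3 of 6 in Psma3, 10 of 21 in 4933407H18Rik, 2 of 3 in uc009qeo.1 and 0 of 1 in Als2cl. The share called was thus below that of all tested sites, and the uncalled sites include the leads of uc012aji.1 and Als2cl. The transcripts were chosen for editing in the same ADAR1-null line, which favours both, so neither is read as a result.

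In untreated cells, 8 of 28 tested sites were called lower in ADAR2-null cells than in wild type and 0 higher, against 12.9% of 588 tested sites called lower, 0.68% called higher and 13.6% called in either direction. The 8 were 2 in uc012aji.1, 1 each in Als2cl, Psma3 and 4933407H18Rik, and 3 in uc009qeo.1, 4 of them lead sites. The site in 4933407H18Rik was position 33758567, taken for its level in untreated wild type, and its call (adjusted p = 0.0497) was lost without any 1 of the 4 libraries (0.0568 to 0.237). The count is fragile: it was 2 without wild-type replicate 1, 3 without wild-type replicate 2, 2 without ADAR2-null replicate 1 and 1 without ADAR2-null replicate 2. With interferon 1 of 50 tested sites was called, against 0.445% of 1348 tested sites called higher, 1.56% called lower and 2% in either direction. At an unadjusted p under 0.05 there were 12, and limma called 3. It was uc012aji.1 position 6122662, named after its values were seen, which was higher in ADAR2-null cells (9.20% ± 0.122) than in wild type (1.76% ± 1.54), with an adjusted p of 0.0494. That count was 3 without wild-type replicate 1 and 0 without wild-type replicate 2 or either ADAR2-null library.

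In p150-knockout cells the share of sites called against wild type with interferon was near that of the whole series. There 29 of 47 tested sites were called lower and 1 higher, against 63.9% of 1039 tested sites called lower, 0.577% called higher and 64.5% in either direction. They were lower at 9 of 14 tested sites in uc012aji.1, 1 of 1 in Als2cl, 3 of 6 in Psma3, 13 of 22 in 4933407H18Rik and 3 of 4 in uc009qeo.1. The 1 higher site, uc012aji.1 position 6123191 (2.60% ± 1.69 in p150-knockout cells, 0% in both wild-type libraries), was named after its values were seen. Replicate 1 of treated p150-knockout cells lay below replicate 2 at the leads of uc012aji.1, Als2cl, 4933407H18Rik and uc009qeo.1, but not of Psma3. It had 5819 sites with at least 50 reads in the series, against 7268 in replicate 2. At the uc012aji.1 lead replicates 1 and 2 had 4595 and 4737 reads, and at the uc009qeo.1 lead 717 and 625. Without it 18 sites were called in place of 30. The part of coverage in these differences was not tested. Untreated, 11 of 27 tested sites were called lower in p150-knockout cells, 7 of them in uc012aji.1 and 0 higher, against 32.5% of 517 tested sites called lower, 0.58% called higher and 33.1% in either direction. That count was 3 and 4 without p150-knockout replicate 1 and 2, and 6 without wild-type replicate 2.

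In STAT2-null cells few sites of the 5 transcripts differed from wild type past the threshold. Untreated, edgeR called 0 of 34 tested sites and limma 0, against 1.24% of 643 tested sites called higher by edgeR, 1.71% lower and 2.95% in either direction, and 4 of the 34 had an unadjusted p under 0.05. With interferon 6 of 46 tested sites were called lower and 0 higher, against 39.8% of 1217 tested sites called lower, 1.15% called higher and 40.9% in either direction. They were 2 in Psma3, 3 in 4933407H18Rik and 1 in uc009qeo.1, and none of the 16 tested sites of uc012aji.1. The count was 2 without STAT2-null replicate 1 and 3 without STAT2-null replicate 2.

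The most sites called between interferon-treated and untreated libraries were in ADAR2-null cells. There 27 of 40 tested sites were called higher with interferon and 0 lower, against 52.2% of 1145 tested sites called higher, 0.0873% called lower and 52.3% in either direction. They were 13 of 17 in uc012aji.1, 4 of 5 in Psma3, 8 of 15 in 4933407H18Rik and 2 of 3 in uc009qeo.1. In wild type 7 of 49 tested sites were called higher and 1 lower, against 40.4% of 1223 tested sites called higher, 0.654% called lower and 41% in either direction. The lower one was uc009qeo.1 position 66221389, named after its values were seen (0.151% ± 0.214 with interferon, 3.01% ± 2.57 untreated, adjusted p = 0.0365). The wild-type count was 5 without treated replicate 2, 4 without untreated replicate 1 and 3 without untreated replicate 2. The ADAR2-null count was 16 and 14 without treated replicate 1 and 2 and 14 without untreated replicate 2.

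Single sites ranged widely in this response. The Psma3 lead site was 50.9 points higher with interferon in ADAR2-null cells (SE 1.90, adjusted p = 0.00132), and the uc012aji.1 lead site 12.2 points higher (SE 0.950, adjusted p = 0.00058), both kept without any 1 library. In wild type the uc012aji.1 lead site was not higher with interferon (difference -8.72, SE 6.04, adjusted p = 0.475), and at Als2cl the difference was -0.201 points (SE 0.568, adjusted p = 0.978). Position 72095588 of Psma3 was 32.6 points higher with interferon in wild type (SE 1.18, adjusted p = 0.0005), with 34.0% and 31.8% in treated and 0.737% and 0% in untreated libraries. It was kept without any 1 library, but not in a fit of only these 2 groups (adjusted p = 0.0605). The site passed the 5% minimum only through interferon-treated groups, so a large response is partly built into its choice. Position 33758056 of 4933407H18Rik, taken for its level in treated wild type, had 11.5% and 12.8% in treated and 0.317% and 0.473% in untreated libraries.

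In the remaining lines few of these sites differed with interferon past the threshold. In p150-knockout cells 1 of 18 tested sites was called, the lead site of 4933407H18Rik, which fell by 5.35 points (SE 1.57, adjusted p = 0.0318), against 1.65% of 243 tested sites. It was lost without untreated p150-knockout replicate 1 (adjusted p = 0.132) or replicate 2 (0.164), with a minimum of 20 reads (0.0571), with no minimum level (0.237) and in a fit of only the 2 groups (0.751). The count was 2 and 4 without treated replicate 1 and 2, and 0 without either untreated library. In STAT2-null cells edgeR called 0 of 29 tested sites and limma 0, 0 of the 29 had an unadjusted p under 0.05, and 0% of 658 tested sites were called. In ADAR1-null cells all 5 lead sites were lower with interferon than untreated, with differences of -1.79 points at Als2cl to -4.0 points at uc012aji.1. These sites were chosen as the highest in the untreated libraries, so this is a description without a test.

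**Figure D4:**
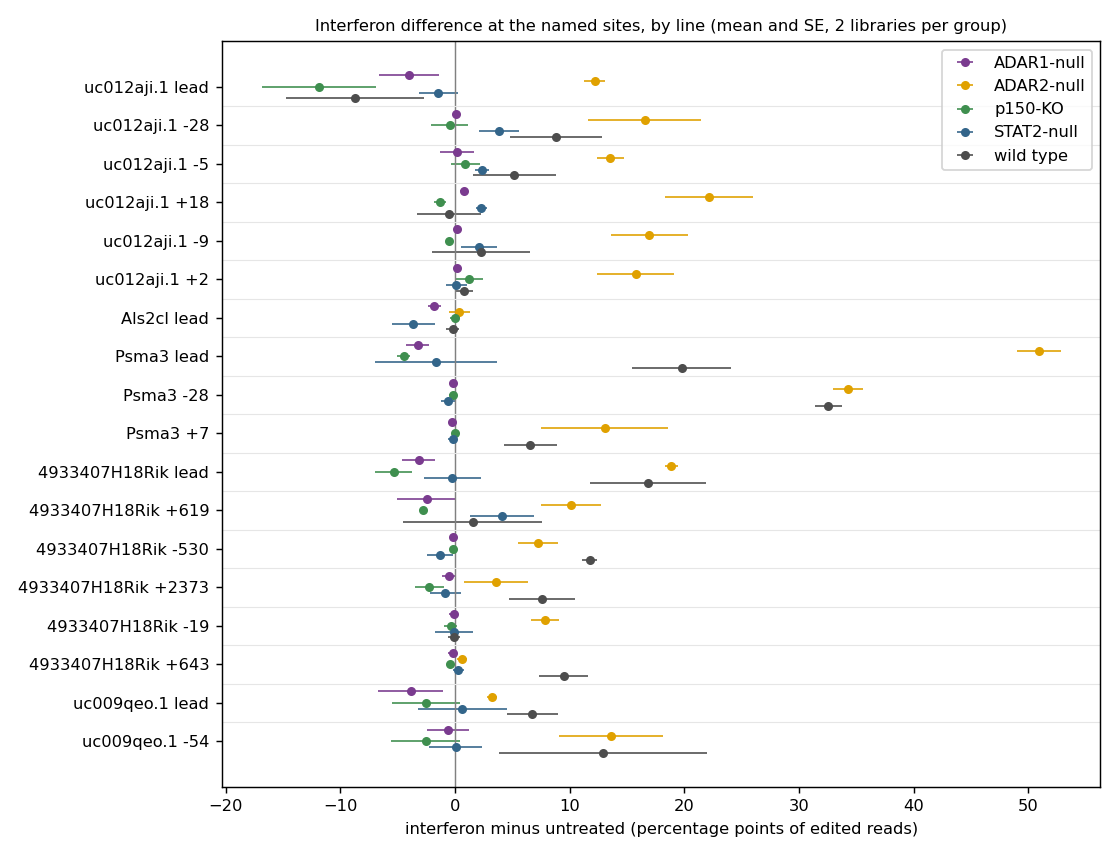
Difference between interferon-treated and untreated libraries (horizontal axis, percentage points of edited reads) at the 18 sites described in full, by line. Points are differences of means and bars their SE, with 2 libraries per group. The ADAR2-null points lie to the right at nearly all sites other than Als2cl, with the Psma3 lead site farthest out at 50.9 points, while ADAR1-null points lie within about 4 points of 0.

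Interferon responses were also compared between lines, at the 18 sites described in full. The response of p150-knockout cells was smaller than that of wild type at Psma3 position 72095588 (a difference of responses of -32.7 points, SE 1.23, adjusted p = 0.0146) and at the lead site of 4933407H18Rik (-22.2 points, SE 5.28, adjusted p = 0.0112), where 17.2% of 839 tested sites were called. The response of STAT2-null cells was smaller than that of wild type at Psma3 position 72095588 (-33.2 points, SE 1.31, adjusted p = 0.0103) and at 4933407H18Rik position 33758056 (-13.0 points, SE 1.31, adjusted p = 0.0154), where 13.8% of 1026 were called. The response of ADAR2-null cells differed from that of wild type past the threshold at none of the 18 sites. Of 1146 tested sites 0.175% were called. The differences of responses ran from -8.85 points (4933407H18Rik position 33759229) to 31.2 points at the Psma3 lead site. The latter had an SE of 4.69, an unadjusted p of 0.0227 and an adjusted p of 0.372. At the uc012aji.1 lead site the difference was 20.9 points (SE 6.12) with an unadjusted p of 0.0004 and an adjusted p of 0.126. Of the 4 called differences, that of p150-knockout cells at Psma3 was lost without untreated p150-knockout replicate 2 (adjusted p = 0.17) and that at 4933407H18Rik without treated replicate 1 (0.0571) or untreated replicate 2 (0.0546). The STAT2-null difference at Psma3 was lost without untreated STAT2-null replicate 2 (0.051), and that at 4933407H18Rik without treated (0.0643) or untreated (0.128) replicate 1. Fitted on only the 4 groups compared, none of the 4 passed, with adjusted p-values of 0.0527 to 0.0777. Both Psma3 position 72095588 and 4933407H18Rik position 33758056 were taken for a high level with interferon, which favours a large wild-type response there.

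Sites of other genes with the most similar levels over the groups were found by the mean absolute difference of group means from each lead site, over at least 8 groups and 259 genes. No site came close to the uc012aji.1 lead: the nearest, uc009qeo.1 position 66221350, was 9.84 points away on average, and had 3.36% in untreated ADAR1-null cells. The Als2cl lead was nearest to sites in Son (2.83 points) and uc007ahf.1 (2.86 points), each over 9 groups. The Psma3 lead was nearest to Mad2l1 (3.82 points) and Mdc1 (4.38 points), the 4933407H18Rik lead to Iws1 (3.23 points) and Exoc8 (3.64 points), and the uc009qeo.1 lead to Rpa1 position 75114502 (2.79 points) and Fnbp1 (3.39 points). These distances describe likeness of levels over groups of the same libraries, and low levels make small distances.

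Sites of genes known for editing by ADAR2 or ADAR1 were counted in the same comparisons. Of 16 genes with sites that ADAR2 is known to edit, among them Gria3 (a glutamate receptor subunit), Flna (a filamin), Cog3 (a Golgi tethering subunit) and Adarb1 (ADAR2 itself), 11 had covered sites, which include many sites other than the known ones. In untreated ADAR2-null cells 5 of 15 tested sites of these genes were called lower than wild type, among them sites in Adarb1, Cog3 and Flna, and 0 higher, against 12.9% of all tested sites. In ADAR1-null cells with interferon 9 of 12 were called lower than in ADAR2-null cells, in Adarb1, Cog3 and Gria3, and 0 higher, near the 68.7% of all tested sites. Low calls against wild type were not particular to ADAR2-null cells. They were 17 of 19 in treated ADAR1-null cells, and 12 of 18 with interferon and 7 of 13 untreated in p150-knockout cells. In STAT2-null cells they were 5 of 20 and 2 of 15, and in treated ADAR2-null cells 4 of 19. Of 3 genes with sites that ADAR1 is known to edit, Blcap and Neil1 had covered sites. Between untreated ADAR2-null cells and wild type 0 of their 4 tested sites were called. Between treated ADAR1-null and ADAR2-null cells 3 of 4 were called lower in ADAR1-null cells, all in Blcap. Among 17 genes of the 20S proteasome 6 had listed sites, and Psma3 was the only one with covered sites.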

How the data were processed

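The members, lists and tests were chosen with earlier results of these data known. Per the series' design text, RT-PCR of 557 loci was used. Per the labels' protocols, the PCR products of each sample were pooled and indexed. BWA, SAMtools and build mm9 are named in the submitters' processing notes, without versions. Per the file headers, the authors deposited a coverage count, an edited-read count and an editing level as a fraction for each library and site. Levels were recomputed as edited reads over coverage and differ from the deposited fraction by at most 0.0005.

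Lead sites are those with the highest mean level in untreated ADAR1-null cells. Up to 5 further sites per transcript with a mean of at least 5% in a group, the highest first, are described in full. edgeR 4.0.16 (R 4.3.3; methylation design matrix, glmQLFit, glmQLFTest) was fitted to edited and unedited counts with 1 coefficient per group and all 20 libraries. Testing required 50 or more reads in each library of both groups, and a mean level over them of 1% or more. A site near 0 in 1 group thus enters through the other, which favours calling that other group higher. A SE is that of a difference of 2 means of 2 libraries. An exact permutation test of 2 against 2 libraries cannot go below p = 0.333, so none was used. At the sites described in full, a group level of 0 is given with the level that 3 edited reads of the group would make. Alternatives were limma 3.58.1 on log2 odds (0.5 added to both counts), read minimums of 20 and 100, level minimums of 0 and 5%, fits of only the groups compared, the replicate number as a block, and leaving out each library. The gene lists were ADAR2 substrates, ADAR1 substrates, 20S proteasome genes and fibroblast markers; some results are not reported here. No mm9 genome was used, so no sequence is given. The design text names 6 lines; the remaining one was not analysed here. Other computation used numpy 2.4.6, pandas 2.3.3 and matplotlib 3.10.9 under Python 3.11.15.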

Additional observations from a re-analysis of the deposited data

Results flagged for a closer look

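At 4 site and line pairs the interferon response differed from that of wild type in a test of the difference itself, made after the levels were seen. At Psma3 position 72095588 the response of p150-knockout cells minus that of wild type was -32.7 points (SE 1.23, edgeR adjusted p = 0.0146), and that of STAT2-null cells minus that of wild type was -33.2 points (SE 1.31, edgeR adjusted p = 0.0103). At the 4933407H18Rik lead site, position 33758586, the response of p150-knockout cells minus that of wild type was -22.2 points (SE 5.28, edgeR adjusted p = 0.0112). At 4933407H18Rik position 33758056 the response of STAT2-null cells minus that of wild type was -13.0 points (SE 1.31, edgeR adjusted p = 0.0154). Both Psma3 position 72095588 and 4933407H18Rik position 33758056 were taken for a high level with interferon, which favours a large wild-type response there. Fitted on only the 4 groups compared, none of the 4 passed, with adjusted p-values of 0.0777, 0.0527, 0.0737 and 0.0624 in this order.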

How the results depend on the processing

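With 2 libraries per group, many calls rest on single libraries: of 86 calls at the sites described in full, 52 were kept without any 1 library and 34 were lost without at least 1. Counts of called sites without 1 library ran from 23 to 27 of a full 29 (ADAR1-null against ADAR2-null with interferon), 20 to 30 of 25 (ADAR1-null against wild type with interferon), 1 to 3 of 8 (ADAR2-null against wild type untreated), 0 to 3 of 1 (the same with interferon), 18 to 29 of 30 (p150-knockout against wild type with interferon), 3 to 9 of 11 (the same untreated), 2 to 8 of 6 (STAT2-null against wild type with interferon), 3 to 8 of 8 (interferon in wild type), 14 to 18 of 27 (interferon in ADAR2-null cells) and 0 to 4 of 1 (interferon in p150-knockout cells). Both STAT2-null counts of 0 were 0 under every setting. A minimum level of 5%, which leaves fewer sites to test, gave in the order above 13, 14, 7, 1, 16, 8, 6, 4, 16 and 0 called sites, and no minimum level gave 26, 24, 6, 2, 28, 5, 6, 7, 17 and 0. Fits of only the groups compared gave 32, 23, 0, 0, 17, 5, 2, 1, 27 and 0, and limma 30, 27, 8, 3, 30, 13, 9, 11, 28 and 1. A minimum of 20 reads gave 5 and 0 for ADAR2-null cells against wild type untreated and with interferon and 0 for interferon in p150-knockout cells, and other counts within 1.5 times. A minimum of 100 reads kept all counts within 1.5 times. The 122 differences at lead sites or called sites are differences of library means, which these settings leave unchanged. Their direction could therefore not be checked by these settings. Replicates of a number did not deviate together across groups (correlations of -0.0574 to 0.0699), so the numbers do not pair the libraries. With the replicate block, 30, 25, 6, 0, 31, 12, 4, 8, 24 and 1 sites were called, and 4 of the 122 differences lost their call, among them uc009qeo.1 in STAT2-null cells against wild type with interferon (adjusted p = 0.0515). Leaving out 1 library turned the direction of 8 uncalled lead-site differences, which then ran from -5.12 to 4.71 (Psma3, STAT2-null against wild type untreated), -1.57 to 4.81 (uc012aji.1, the same with interferon), -0.764 to 0.362 (Als2cl, interferon in wild type), -5.26 to 0.224 (uc009qeo.1, interferon in p150-knockout cells) and, for interferon in STAT2-null cells, -6.54 to 3.29 (Psma3), -2.61 to 2.16 (4933407H18Rik), -2.79 to 4.05 (uc009qeo.1) and -3.13 to 0.259 points (uc012aji.1). The cause of these changes was not tested. All 50 group levels at the lead sites stayed within 1 SD of their mean when taken from the deposited fraction. A level from pooled reads lies between the levels of its 2 libraries. It is thus always within 1 SD of their mean, so pooling could not fail that check. At the uc009qeo.1 lead site in untreated ADAR1-null cells the pooled level was 3.0%, against a mean of 4.91%. With 20 and 100 reads required, 244 and 229 sites met the coverage rule. Depth limits the smallest levels: 0 reads of 271 allow up to 1.11%.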
